A study of Rattus norvegicus with 18 samples.

Results

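The genes described here are 10 genes of cellular iron handling and of ferroptosis, the iron-dependent form of cell death driven by peroxidation of membrane lipids. They are Fth1, Ftl1, Tfrc, Slc40a1, Slc11a2, Hmox1, Slc7a11, Gpx4, Acsl4 and Hamp, out of 32116 genes in the deposited table. They were found by gene name: 9 of the 10 names matched, in 11 rows, because Ftl1 is listed in 3 rows. The remaining member, Slc40a1, carries a placeholder name (NEWGENE_620180) in the table and was matched through its description there. RNA sequencing was done on whole kidneys of rats in 3 groups of 6 libraries. SZ rats were given adenine (100 mg per kg daily) together with SZ-A (300 mg per kg daily), CKD rats the same adenine dose alone, and NC rats were untreated. Adenine was thus common to the SZ and CKD groups, and the labels give no SZ-A group without adenine, no strain, no age and no duration. No source used here says what SZ-A is chemically. The labels do not tie libraries to animals, so the p-values below rest on the spread among libraries, part of which may be technical.

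Iron reaches kidney cells bound to transferrin, through the transferrin receptor Tfrc, and as free ions or recycled endosomal iron through the divalent metal transporter Slc11a2 (DMT1). Inside the cell it is stored in ferritin, a shell built of heavy (Fth1) and light (Ftl1) chains, and it leaves through ferroportin (Slc40a1), which the liver hormone hepcidin (Hamp) removes from the membrane. Haem oxygenase 1 (Hmox1) frees iron from haem. Slc7a11 imports cystine for glutathione synthesis, Gpx4 uses glutathione to reduce lipid hydroperoxides, and Acsl4 loads membranes with the polyunsaturated fatty acids that are peroxidised. Ferritin and transferrin receptor messages are also controlled after transcription by iron regulatory proteins. RNA levels do not show the part of this control that acts on translation.

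Values are FPKM (fragments per kilobase of gene, scaled to library size by the authors), so levels can be compared between genes per length. Depth was even, at 15354358 to 18532375 recovered reads per library. Genes with at least 1 FPKM in at least 6 of the 18 libraries were tested (13851 genes) with limma on log2(FPKM + 1), and a gene is called at a Benjamini-Hochberg adjusted p below 0.05 over all tested genes. Of the 10 members, 8 passed this filter, and Slc7a11 and Hamp did not. The library sizes the authors divided by were 0.969 to 1.12 times the recovered total in SZ, 1.02 to 1.26 times in CKD and 0.862 to 0.951 times in NC libraries. A scaling to equal FPKM sums (TPM) moved the median gene of CKD against NC to 0.34 on the log2 scale, against -0.0398 as deposited, and plain totals moved it to 0.248. TPM scaling moved the median gene of SZ against CKD to -0.12 and of SZ against NC to 0.221. Fold changes near these shifts depend on the scaling. Under TPM scaling 47.6% of all genes were called higher and 9.25% lower in CKD against NC, against 24.4% and 26.0% as deposited. The directions given below are those of the deposited scaling unless another is named. In 3 libraries, CKD2, CKD5 and SZ3, short genes stood high and long genes low, where each doubling of length changed the level by -0.211, -0.312 and -0.248 on the log2 scale, against -0.1 to 0.115 in the other 15 libraries. The summed level of 8 proximal tubule markers was 3132 to 4151 FPKM in NC kidneys with none at 0, so these defining markers of kidney were present.

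Across the 10 members, levels spanned from 5513 FPKM (Fth1 in SZ3) to 0 and kept most of their order between groups. Fth1 was highest, with group means of 3408 FPKM in SZ, 3565 FPKM in CKD and 3521 FPKM in NC kidneys. Ftl1 followed at 872.5, 965.4 and 1084 FPKM, then Gpx4 at 279.9, 292.6 and 296.5 FPKM and Slc11a2 at 46.11, 30.92 and 40.53 FPKM in SZ, CKD and NC kidneys. The ranges of neighbours among these 4 genes did not overlap in any group. Below them, Tfrc, Acsl4 and Slc40a1 overlapped each other in NC kidneys, at means of 20.23, 15.48 and 12.51 FPKM. Hmox1 averaged 3.42 FPKM in NC kidneys, under all of these, and 17.16 FPKM in CKD kidneys, where its range overlapped those of Acsl4, Tfrc and Slc40a1. Slc7a11 and Hamp stood last in all 3 groups.

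**Figure D1:**
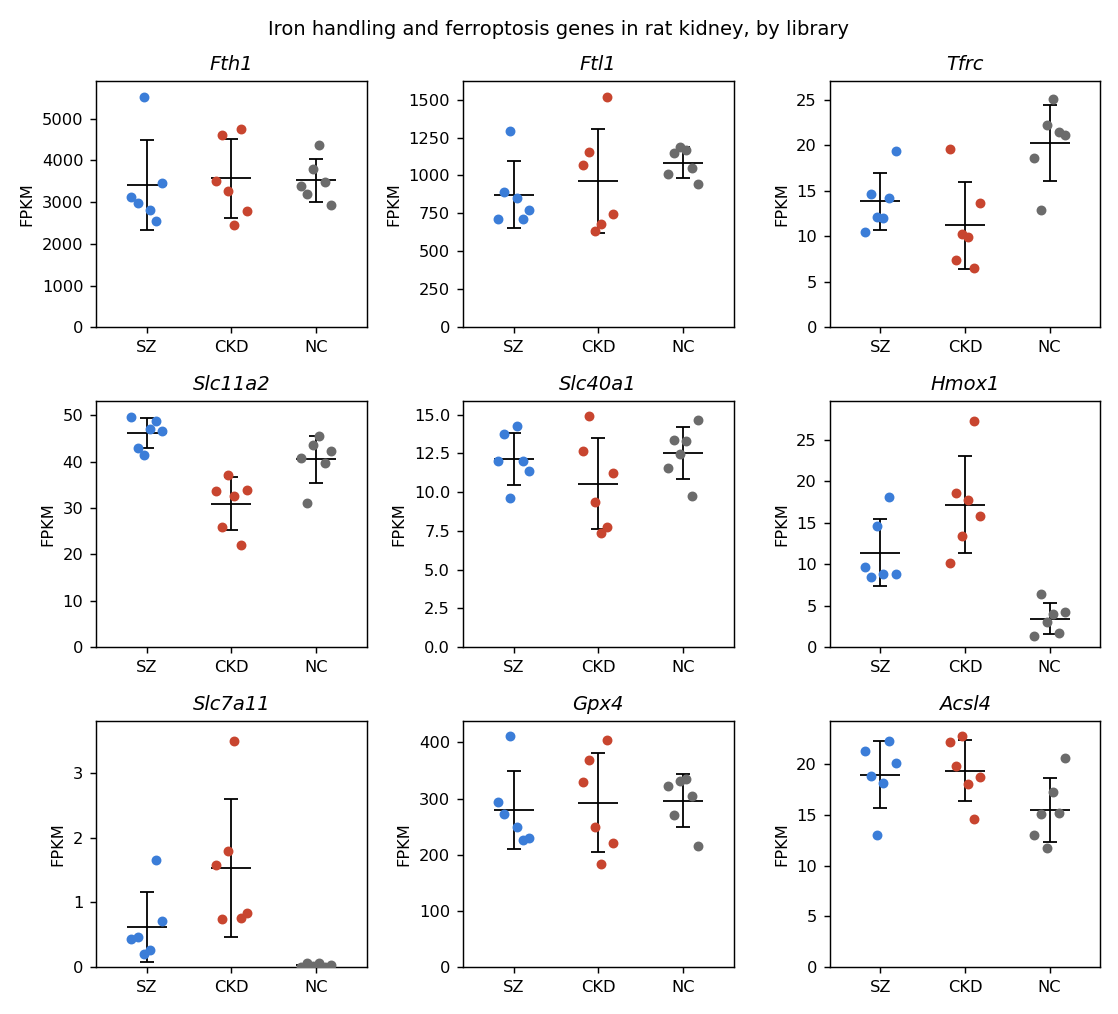
FPKM of 9 of the members (vertical axes, from 0) in each library of SZ, CKD and NC kidneys, 6 libraries per group. Points are libraries and the bar with whiskers is the mean ± SD. Hmox1 and Slc7a11 lie higher in every SZ and every CKD library than in any NC library, Slc11a2 lies higher in every SZ library than in any CKD library, and Fth1, Gpx4 and Slc40a1 overlap between all groups. Hamp, with 1 read in all, is not drawn.

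Hmox1 showed the largest fold change among the 8 tested members in both comparisons with NC kidneys. It lies on chromosome 19 (13467244 to 13474079 on mRatBN7.2, plus strand). Its level was 9.61, 8.44, 14.5, 8.79, 18.1 and 8.77 FPKM in SZ1 to SZ6, 10.2, 18.6, 13.4, 17.8, 27.3 and 15.8 FPKM in CKD1 to CKD6, and 1.31, 6.40, 3.01, 3.98, 1.65 and 4.19 FPKM in NC1 to NC6. Every adenine-treated library exceeded every NC library, while SZ and CKD libraries overlapped. Hmox1 averaged 17.16 ± 5.82 FPKM in CKD and 3.42 ± 1.87 FPKM in NC kidneys (SD, n = 6 each), a change of 2.09 log2 units (SE 0.272, limma adjusted p = 6.1e-06). It was called in all 31 alternative analyses, between 1.87 and 2.47. In SZ kidneys it averaged 11.37 ± 4.01 FPKM, which was higher than in NC kidneys by 1.54 log2 units (SE 0.272, limma adjusted p = 0.00058, called in all 31 alternatives). Against CKD kidneys the SZ difference was -0.55 log2 units (SE 0.272, 95% interval -1.12 to 0.0195, limma adjusted p = 0.19) and did not pass the test under any alternative. All 12 of 12 macrophage markers were higher in CKD than in NC kidneys and 11 of 12 were lower in SZ than in CKD kidneys. Their summed level was 462.4 to 1078 FPKM in SZ, 1172 to 2580 FPKM in CKD and 113.6 to 218.1 FPKM in NC kidneys, with none at 0. The part of these markers in the Hmox1 result was not tested. In whole tissue, fewer cells of a type and less RNA per cell cannot be told apart, here and for every gene below. Within groups, the library with the highest Hmox1 level had the highest macrophage marker sum among CKD (CKD5) and NC (NC2) libraries. Among SZ libraries Hmox1 was highest in SZ5 (marker sum 801.8 FPKM) and the sum was highest in SZ3 (1078 FPKM). Further down the orders differed too. CKD2 exceeded CKD3 in Hmox1 but had the lower sum (1531 against 1614 FPKM). NC3 exceeded NC5 in Hmox1 but had the lower sum (151.6 against 200.4 FPKM). Only single libraries are set side by side here, and any link was not tested.

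Slc7a11, the transport subunit of the cystine and glutamate exchanger on chromosome 2 (133963107 to 134517536, minus strand), was almost undetected in untreated kidneys. Its level was 0.430, 0.462, 0.207, 0.260, 1.66 and 0.715 FPKM in SZ1 to SZ6, from 30, 34, 18, 21, 140 and 63 reads. In CKD1 to CKD6 it was 1.58, 0.738, 1.80, 3.49, 0.750 and 0.838 FPKM, from 139, 53, 162, 339, 67 and 73 reads. In NC1 to NC6 the reads were 0, 4, 1, 4, 0 and 2, which gives at most 0.0606 FPKM. Every SZ and CKD library lay above every NC library, and SZ and CKD libraries overlapped, SZ5 being within the CKD range. The gene failed the filter on low values, so it was put to exact 2-sided permutation tests on log2(FPKM + 1), for which 0.0022 is the smallest p possible with 6 against 6. CKD kidneys exceeded NC kidneys by 1.21 log2 units (exact permutation p = 0.0022, adjusted over the 3 comparisons 0.0032), and their mean FPKM was 56.5 times as high, from 833 against 11 reads in all. SZ kidneys exceeded NC kidneys by 0.604 log2 units (exact permutation p = 0.0022, adjusted 0.0032). With limma on all genes and no filter, the limma adjusted p was 0.00034 for CKD against NC but 0.08 for SZ against NC. SZ kidneys were lower than CKD kidneys by a difference of -0.607 log2 units that did not pass (exact permutation p = 0.052, adjusted 0.052). Without SZ5, the library with the highest level in its group, that difference was -0.761 (exact permutation p = 0.0043), and over all alternatives its p ran between 0.0043 and 0.1.

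The 2 import genes, Tfrc and Slc11a2, fell in CKD against NC kidneys with the deposited scaling (under TPM scaling neither fall passed, and Slc11a2 turned to 0.053), and Slc11a2 rose in SZ against CKD kidneys. To show the DNA next to which these genes start, the 250 bases before each RefSeq start are printed from the RefSeq promoter table (GRCr8, another build than that of the FPKM table), 5′ to 3′ on the coding strand. Capitals mark the core of the hypoxia response element, ACGTG on either strand, a motif chosen after the windows had been read.
Tfrc, chr11:81690319-81690568, minus strand: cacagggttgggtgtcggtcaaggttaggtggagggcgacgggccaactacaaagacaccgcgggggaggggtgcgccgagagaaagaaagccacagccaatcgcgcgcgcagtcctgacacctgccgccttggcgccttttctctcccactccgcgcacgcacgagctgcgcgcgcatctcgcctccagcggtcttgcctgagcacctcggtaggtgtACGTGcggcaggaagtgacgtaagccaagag
Slc11a2, first start, chr7:133417789-133418038, minus strand: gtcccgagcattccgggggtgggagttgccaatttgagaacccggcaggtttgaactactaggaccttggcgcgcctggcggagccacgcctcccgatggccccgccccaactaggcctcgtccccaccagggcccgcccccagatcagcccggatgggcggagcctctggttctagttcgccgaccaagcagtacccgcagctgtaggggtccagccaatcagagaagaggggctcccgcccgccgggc
Slc11a2, second start, chr7:133418940-133419189, minus strand: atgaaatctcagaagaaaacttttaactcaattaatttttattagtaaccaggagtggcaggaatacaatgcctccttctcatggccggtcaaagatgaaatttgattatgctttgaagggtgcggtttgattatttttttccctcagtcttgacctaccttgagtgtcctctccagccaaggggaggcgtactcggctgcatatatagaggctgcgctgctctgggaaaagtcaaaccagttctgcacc
The search covered 10 windows, each 250 bases before and 50 after a start, of Tfrc, Slc11a2, Slc40a1, Slc7a11, Gpx4, Acsl4 and Hamp. Fth1, Ftl1 and Hmox1 were not searched. ACGTG stood in 1 of these 10 windows, that of Tfrc, with its first base 31 bases before the start, and in 19.3% of all 33469 windows. The antioxidant response element core TGACNNNGC (either strand) stood in 0 of the 10 windows and in 12.1% of all windows. The loop pattern of the iron-responsive element was searched on the coding strand, only in the 50 bases after the start. It stood in 0 of the 10 windows and in 1.57% of all. The rest of each transcript was not searched, so this count cannot show whether these genes carry the element. A match is a run of letters and not a measured binding site, and no match says only that the letters are not in these windows.

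Tfrc (chromosome 11, 68163413 to 68185257, minus strand) takes up transferrin-bound iron. Its level was 10.5, 14.6, 12.2, 12.0, 14.3 and 19.4 FPKM in SZ1 to SZ6, 19.5, 7.42, 10.3, 9.92, 6.47 and 13.7 FPKM in CKD1 to CKD6, and 18.6, 12.9, 22.2, 25.1, 21.5 and 21.2 FPKM in NC1 to NC6. The groups overlapped: CKD1, CKD6, SZ2, SZ5 and SZ6 lay within the NC range, and NC1 and NC2 lay within the SZ and CKD ranges. Tfrc averaged 11.22 ± 4.79 FPKM in CKD and 20.23 ± 4.14 FPKM in NC kidneys (SD, n = 6 each), a change of -0.856 log2 units (SE 0.212, limma adjusted p = 0.0026). The call held in 30 of 31 alternatives and was lost under TPM scaling, where the change was -0.429 (limma adjusted p = 0.12) against a median gene at 0.34. Of the erythroid markers, 6 of 9 were found and 4 tested (Hba-a2, Hba-a3, Hbb-b1 and Slc4a1), of which 3 were lower in CKD than in NC kidneys. The 6 found summed to 162.3 to 370.7 FPKM in SZ, 54.15 to 192.2 FPKM in CKD and 288.1 to 638.8 FPKM in NC kidneys, with Hbb-bs at 0. Which cells these transcripts came from was not tested. Of the proximal tubule markers, 7 of 8 were lower in CKD than in NC kidneys. So were 4 of 4 loop and distal tubule, 4 of 5 collecting duct and 4 of 4 podocyte markers. Their part in the Tfrc result was not tested. In SZ kidneys the mean was 13.81 ± 3.11 FPKM, with a difference from CKD of 0.339 log2 units (95% interval -0.105 to 0.783, limma adjusted p = 0.30) and from NC of -0.517 (95% interval -0.961 to -0.073, limma adjusted p = 0.09). The SZ against NC difference passed without NC2 (-0.634, limma adjusted p = 0.04) and without CKD1 (-0.517, limma adjusted p = 0.043).

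Slc11a2 (chromosome 7, 131503081 to 131540145, minus strand) was the only tested member called in SZ against CKD. Its level was 49.7, 43.0, 41.5, 47.0, 48.9 and 46.6 FPKM in SZ1 to SZ6, 33.8, 26.0, 37.2, 32.7, 22.1 and 33.8 FPKM in CKD1 to CKD6, and 40.9, 31.1, 43.6, 45.5, 39.8 and 42.4 FPKM in NC1 to NC6. Every SZ library exceeded every CKD library, and NC2 was the NC library that fell within the CKD range. The mean was 46.11 ± 3.24 FPKM in SZ and 30.92 ± 5.68 FPKM in CKD kidneys (SD, n = 6 each), a change of 0.58 log2 units (SE 0.12, limma adjusted p = 0.0088). The call held in 30 of 31 alternatives, and TPM scaling gave 0.437 (limma adjusted p = 0.058). In CKD against NC, with an NC mean of 40.53 ± 5.04 FPKM, Slc11a2 fell by 0.391 log2 units (SE 0.12, limma adjusted p = 0.011). This fall depends on the scaling: plain totals gave -0.0534 (limma adjusted p = 0.73) and TPM scaling reversed it to 0.053 (limma adjusted p = 0.79), which relative to the median gene is -0.301 and -0.287. Without CKD2, CKD5 and SZ3 it was -0.224 (limma adjusted p = 0.058). SZ and NC kidneys differed by 0.189 log2 units (95% interval -0.0617 to 0.44, limma adjusted p = 0.28), which passed under TPM scaling (0.49, limma adjusted p = 0.022) and plain totals (0.402, limma adjusted p = 0.023). The 8 proximal tubule markers summed to 1789 to 3210 FPKM in SZ, 625.9 to 1776 FPKM in CKD and 3132 to 4151 FPKM in NC kidneys, with none at 0, and 6 of 8 were higher in SZ than in CKD kidneys and 7 of 8 lower in CKD than in NC kidneys. Other markers also fell in CKD against NC: 4 of 4 for loop and distal tubule, 4 of 5 for collecting duct and 4 of 4 for podocytes. In SZ against CKD, 0, 2 and 0 of these were higher and 0 lower. The part of any of these markers in the Slc11a2 result was not tested.

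The storage genes showed no called change. Fth1, the heavy chain with the ferroxidase activity (chromosome 1, 206627103 to 206725424, plus strand), had 3128, 2989, 5513, 2815, 2544 and 3460 FPKM in SZ1 to SZ6, 3501, 4618, 3276, 2457, 4749 and 2791 FPKM in CKD1 to CKD6, and 3379, 3183, 3801, 4366, 3476 and 2921 FPKM in NC1 to NC6. The groups overlapped throughout, and the 3 highest libraries were SZ3, CKD5 and CKD2. The log2 fold change was -0.0118 in CKD against NC (95% interval -0.479 to 0.455, limma adjusted p = 0.97), -0.0722 in SZ against CKD (-0.539 to 0.395, limma adjusted p = 0.86) and -0.084 in SZ against NC (-0.551 to 0.383, limma adjusted p = 0.82). In CKD against NC it turned positive under TPM scaling (0.444) and plain totals (0.335). The span of Fth1 in the table, 98322 bases for a gene length of 985, overlaps Fads2 on the other strand, whose mean level was 18.3 FPKM, as well as Fads3, Rab3il1, Best1 and an unnamed locus at 10.3 FPKM or less. No source used here states the strand setting of the counting, so reads in such overlaps are uncertain.

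Ftl1, the light chain, is listed in 3 rows under the same name. How alike their sequences are, and whether reads are split between them, was not tested, so the values of Ftl1 are uncertain. The row on chromosome 1 (95936387 to 95939725, minus strand), the chromosome RefSeq gives for Ftl1, held most of the reads: 712.7, 891.5, 1296, 852.6, 712.6 and 769.5 FPKM in SZ1 to SZ6, 1067, 1153, 635, 677.5, 1515 and 745.8 FPKM in CKD1 to CKD6, and 1007, 1151, 1190, 1167, 1050 and 942.6 FPKM in NC1 to NC6. CKD libraries lay on both sides of the NC range, and 5 of the 6 SZ libraries lay below it. The log2 fold change was -0.235 in CKD against NC (95% interval -0.669 to 0.198, limma adjusted p = 0.36), and without CKD2, CKD5 and SZ3 it was -0.498 (limma adjusted p = 0.012). Between SZ and NC kidneys it was -0.341 (95% interval -0.774 to 0.0927, limma adjusted p = 0.26), and -0.461 without those 3 libraries (limma adjusted p = 0.025). TPM scaling turned the CKD against NC value to 0.22 (limma adjusted p = 0.30). The row on chromosome 5 averaged 3.43 ± 1.14 FPKM in SZ and 5.64 ± 0.762 FPKM in NC kidneys and was called (-0.611, limma adjusted p = 0.031), but lost the call under TPM scaling (-0.359, limma adjusted p = 0.16), plain totals (-0.43, limma adjusted p = 0.12), with no filter (limma adjusted p = 0.054), with voom on recovered reads (0.055), with the replicate block (0.067) and without any of NC1, NC3, SZ1, SZ2, SZ5 or SZ6 (limma adjusted p = 0.058 to 0.074). The row on chromosome 10 averaged 1.25, 2.50 and 2.46 FPKM in SZ, CKD and NC kidneys and was not called. The ratio of Fth1 to Ftl1 had medians of 3.9 in SZ, 3.68 in CKD and 3.25 in NC kidneys. The annotated Ftl1 row also overlaps Bax by position. Beside the members, 12 more rows carry a ferritin heavy or light chain description, and 8 of them were tested. Their highest mean was 127 FPKM. Whether reads of Fth1 or Ftl1 are split with these rows was not tested, so the values of both genes carry this doubt.

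The export side held no called member. Ferroportin, Slc40a1 (chromosome 9, 48033526 to 48051481, minus strand), averaged 12.17 ± 1.68 FPKM in SZ, 10.54 ± 2.94 FPKM in CKD and 12.51 ± 1.69 FPKM in NC kidneys (SD, n = 6 each). It ranged from 9.63 to 14.3 FPKM in SZ, 7.34 to 14.9 FPKM in CKD and 9.78 to 14.7 FPKM in NC libraries, so the CKD range enclosed both others. Its log2 fold change in CKD against NC was -0.256 (95% interval -0.565 to 0.0522, limma adjusted p = 0.15), which passed without CKD2 (-0.356, limma adjusted p = 0.039) and was 0.16 under TPM scaling. Against CKD, SZ kidneys differed by 0.219 (95% interval -0.0896 to 0.527, limma adjusted p = 0.33). Hamp, which encodes hepcidin (chromosome 1, 86170901 to 86172891, minus strand), gave 1 read in NC2 and 0 reads in the other 17 libraries. All groups were at or under the floor of 3 reads, so no fold is given.

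Of the ferroptosis genes, Gpx4 and Acsl4 showed no called change. Gpx4 (chromosome 7, 9650185 to 9652982, minus strand) had 293.1, 271.9, 410.6, 249, 225.5 and 229.6 FPKM in SZ1 to SZ6, 329.7, 368.5, 249.7, 182.8, 403.8 and 221.1 FPKM in CKD1 to CKD6, and 321.5, 270.3, 331.9, 335.6, 305.3 and 214.6 FPKM in NC1 to NC6. All ranges overlapped, with SZ3, CKD5 and CKD2 again the highest libraries. Its log2 fold change was -0.0593 in CKD against NC (95% interval -0.469 to 0.351, limma adjusted p = 0.82), -0.0384 in SZ against CKD (-0.448 to 0.372, limma adjusted p = 0.92) and -0.0977 in SZ against NC (-0.508 to 0.312, limma adjusted p = 0.76). TPM scaling gave 0.394 in CKD against NC (limma adjusted p = 0.04), close to the median gene's 0.34. Acsl4 (chromosome X, 105942799 to 106006427, minus strand) had 21.3, 18.8, 13.0, 18.1, 22.3 and 20.1 FPKM in SZ1 to SZ6, 22.2, 19.8, 22.8, 18, 14.6 and 18.7 FPKM in CKD1 to CKD6, and 13.0, 15.1, 11.7, 17.3, 15.2 and 20.6 FPKM in NC1 to NC6. The groups overlapped through SZ3 and CKD5 at the low end and NC6 at the high end. Its log2 fold change in CKD against NC was 0.312 (95% interval 0.012 to 0.612, limma adjusted p = 0.077) and was called in 9 of 31 alternatives. Among them were plain totals (0.639, limma adjusted p = 0.00093), the fit without CKD2, CKD5 and SZ3 (0.393, limma adjusted p = 0.018) and the fits without NC6 (0.395, limma adjusted p = 0.028), CKD5 (0.386, limma adjusted p = 0.033) or SZ3 (0.312, limma adjusted p = 0.044). Between SZ and CKD kidneys it was -0.0343 (95% interval -0.334 to 0.266, limma adjusted p = 0.90).

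**Figure D2:**
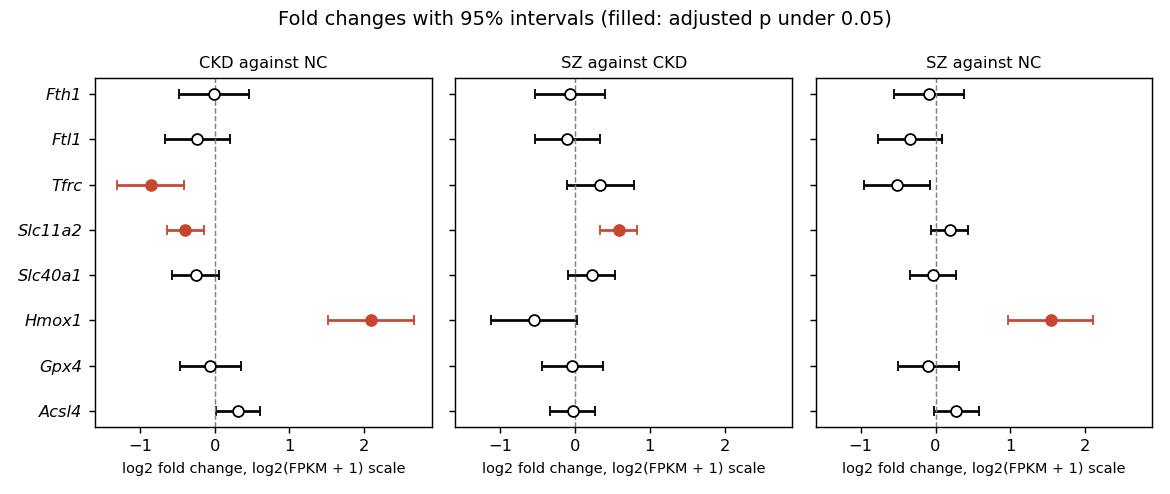
Log2 fold changes of the 8 tested members with their 95% intervals (horizontal axis, on the log2(FPKM + 1) scale) in CKD against NC, SZ against CKD and SZ against NC. Filled points have a limma adjusted p below 0.05: Tfrc (-0.856), Slc11a2 (-0.391) and Hmox1 (2.09) in CKD against NC, Slc11a2 (0.58) in SZ against CKD, and Hmox1 (1.54) in SZ against NC. The scaling is the deposited one, and under TPM scaling Slc11a2 is at 0.053 in CKD against NC.

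In CKD against NC, 3 of the 8 tested members were called (37.5%), 1 higher and 2 lower, where 50.3% of all tested genes were called (24.4% higher and 26.0% lower). Under TPM scaling the 3 called were all higher, and under plain totals 2 were higher and 1 lower. For SZ against CKD, 1 of 8 was called (12.5%), with 11.0% of all genes called, 4.16% of them higher and 6.82% lower. For SZ against NC, 1 of 8 was called (12.5%), with 21.1% of all genes called, 12.5% of them higher and 8.61% lower. These member shares were near or below those of all genes. Exactly 1 tested member had group ranges that did not overlap in each comparison, where 26.5%, 2.26% and 14.6% of all tested genes did in CKD against NC, SZ against CKD and SZ against NC. The median log2 fold change of the members was -0.147, -0.0363 and -0.0607 in these comparisons, and that of all genes was -0.0398, 0.00551 and -0.0355. The 3 comparisons share libraries pairwise (the 6 NC, 6 CKD or 6 SZ libraries), so their values are not independent of each other. The SZ against NC count was 3 under plain totals, under TPM scaling and without CKD2, CKD5 and SZ3, and 2 without NC2 or without CKD1.

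**Figure D3:**
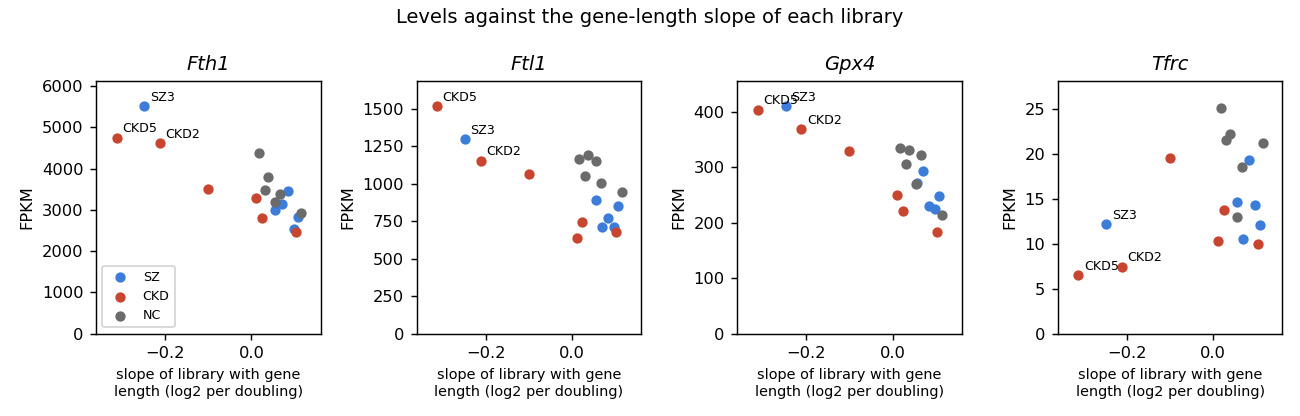
FPKM of Fth1, Ftl1, Gpx4 and Tfrc (vertical axes, from 0) against each library's slope with gene length (horizontal axis, log2 units per doubling of length), with points coloured by group. CKD2, CKD5 and SZ3 lie at slopes of -0.211, -0.312 and -0.248, where they are the 3 highest libraries for Fth1 and Gpx4, and CKD5 and CKD2 are the lowest for Tfrc.

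The 3 libraries with the most negative length slopes held extreme levels of several members, though not of all. Fth1 (985 bases) and Gpx4 (1142 bases) were highest in SZ3, CKD5 and CKD2, and Ftl1 (2411 bases) in CKD5 and SZ3. Tfrc (4823 bases) was lowest in CKD5 and CKD2, and so was Slc11a2 (4895 bases). The other long members followed this only in part. Slc40a1 (7590 bases) was highest of all 18 libraries in CKD2 but ranked 17 from the top in CKD5 and 15 in SZ3. Acsl4 (8233 bases) ranked 7 from the top in CKD2, 15 in CKD5 and 17 in SZ3. Slc11a2 and Tfrc ranked 9 and 12 from the top in SZ3. The 3 libraries are also among those that set the CKD and SZ means. The part of the length slope in the fold changes was not tested beyond the fits that left the 3 libraries out or corrected for length. Hmox1 (1546 bases) was highest in CKD5 and CKD2, and without the 3 libraries it was still called in both comparisons with NC.

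Around the members, 10 lists of other iron and ferroptosis genes held 101 symbols, of which 99 were found and 83 tested. In CKD against NC, 20 of the 83 rose and 33 fell (63.9% called), beside the 50.3% of all genes. This balance depended on the scaling: under TPM scaling 34 rose and 13 fell, under plain totals 30 rose and 16 fell, and without the 20 most abundant genes in the scaling 21 rose and 26 fell. In the list of transferrin and ionic iron entry, 4 of 6 rose and 1 fell. Tf, transferrin itself, averaged 104 ± 50.9 FPKM in CKD and 27.7 ± 4.46 FPKM in NC kidneys (SD, n = 6 each), a change of 1.76 log2 units (SE 0.328, limma adjusted p = 0.00024). The 6 markers of hepatocytes, cells that make much transferrin, summed to 17.2 to 34 FPKM in CKD and 3.32 to 68.9 FPKM in NC kidneys, with Ttr at 0, and their part was not tested. The metalloreductase Steap4 (1.01) and the zinc and iron transporter Slc39a14 (0.791) rose too. Slc39a8, a metal importer of the same family, averaged 9.13 ± 3.4 FPKM in CKD and 35.3 ± 9.31 FPKM in NC kidneys (-1.86, SE 0.199, limma adjusted p = 6.8e-07).

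Haem, haemoglobin and siderophore uptake was mixed in CKD against NC, with 4 of 10 genes higher and 3 lower (4 and 1 under TPM scaling and plain totals). Lcn2, which binds iron-loaded siderophores and is a marker of tubular injury, averaged 146 ± 101 FPKM in CKD and 2.14 ± 1.17 FPKM in NC kidneys, a change of 5.32 log2 units (SE 0.45, limma adjusted p = 6.3e-08). The 4 markers of neutrophils, which also store Lcn2, summed to 5.77 to 26 FPKM in CKD and 0.98 to 7.08 FPKM in NC kidneys, and their part was not tested. Cd163, the haemoglobin scavenger receptor of macrophages, averaged 3.76 ± 2.11 FPKM in CKD and 0.0751 ± 0.0391 FPKM in NC kidneys (2.02, which the added 1 FPKM understates, SE 0.244, limma adjusted p = 2.8e-06), and it is also 1 of the 12 macrophage markers. Lrp2 (megalin), an endocytic receptor of the proximal tubule, fell to 63.1 ± 22.6 FPKM in CKD, against 174 ± 14.3 FPKM in NC kidneys (-1.54, SE 0.248, limma adjusted p = 5.9e-05), and is also 1 of the 8 proximal tubule markers. Both tested partners of ferroportin rose, the copper ferroxidases Cp at 94.2 ± 25.5 FPKM in CKD and 13.8 ± 7.03 FPKM in NC kidneys (2.79, SE 0.261, limma adjusted p = 1.8e-07) and Heph (1.15, SE 0.208, limma adjusted p = 0.00018).

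Among regulators of iron, 4 of 11 rose and 3 fell in CKD against NC (5 and 1 under TPM scaling, 4 and 1 under plain totals). Aco1, the cytosolic aconitase that doubles as iron regulatory protein, averaged 75.1 ± 40.5 FPKM in CKD and 201 ± 22.6 FPKM in NC kidneys (-1.56, SE 0.249, limma adjusted p = 5.4e-05). Bmp6 (0.777) and Bmp2 (0.727), ligands that induce hepcidin in the liver, and Hfe (0.78) rose too, with means of at most 2.91 FPKM in NC kidneys. In mitochondrial iron use and haem synthesis, 8 of 16 fell and 1 rose, with the cysteine desulfurase Nfs1 at 157 ± 53.8 FPKM in CKD and 301 ± 37.6 FPKM in NC kidneys (-0.994, SE 0.172, limma adjusted p = 0.00012) and the iron importer Slc25a37 at -0.875. Under TPM scaling 4 of the 16 rose and 3 fell, and under plain totals 4 rose and 5 fell. Erythroid markers (3 of 4 tested lower, median log2 fold change -1.3) and proximal tubule markers (7 of 8 lower, median -1.53) fell in the same comparison, and their part in this list was not tested. No member of the storage list beside the ferritins was called, with 2 of 4 tested, but both were called higher under TPM scaling and 1 under plain totals. Ncoa4 was not tested, because its 2 rows, over nearly the same span of chromosome 16, failed the filter. Whether reads were lost between these rows was not tested. In haem breakdown, beside Hmox1, 2 of 6 fell and none rose: Hmox2, the constitutive oxygenase, at -0.568, and Blvra at -0.994. Under TPM scaling and under plain totals the same list had 2 genes higher and 0 lower. Hmox2 was then at -0.127 (limma adjusted p = 0.36) under TPM scaling and -0.232 (limma adjusted p = 0.10) under plain totals. Blvra lost its call under all 3 other scalings (limma adjusted p = 0.051 to 0.20) and was called in 15 of 31 alternatives.

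Cystine import and glutathione synthesis was the list with the largest share called in CKD against NC after iron export, with 7 of 8 lower and none higher (4 of 8 lower and none higher under TPM scaling and plain totals). Gclc, the catalytic subunit of the rate-limiting enzyme of glutathione synthesis, averaged 340 ± 307 FPKM in CKD and 1570 ± 873 FPKM in NC kidneys (-2.41, SE 0.639, limma adjusted p = 0.0043). Cth, which makes cysteine from cystathionine, averaged 65.9 ± 33.1 FPKM in CKD and 229 ± 85.2 FPKM in NC kidneys (-1.83, SE 0.295, limma adjusted p = 6e-05), and Cbs, the enzyme before it, fell by 1.35 log2 units. Gclm, the modifier subunit, was at -1.38 and lost its call under TPM scaling (limma adjusted p = 0.08), plain totals (limma adjusted p = 0.051) and without CKD2, CKD5 and SZ3 (limma adjusted p = 0.066). Slc7a11, the cystine importer of the same pathway, was higher in CKD than in NC kidneys, as given above. The 8 proximal tubule markers had a median log2 fold change of -1.53 in the same comparison, against -1.21 for this list, and their part in its fall was not tested. Of the other ferroptosis suppressors 3 of 10 rose and 3 fell (6 and 2 under TPM scaling, 4 and 2 under plain totals), with Pla2g6 at -0.866 and Mboat1 at 0.507. Of the genes of lipid peroxidation 2 of 12 rose and 6 fell (5 and 1 under TPM scaling, 5 and 2 under plain totals), with the NADPH oxidase Nox4 at 21.4 ± 10.4 FPKM in CKD and 71.2 ± 28.9 FPKM in NC kidneys (-1.77, SE 0.379, limma adjusted p = 0.00082), the desaturase Fads2 at -0.859 (-0.432 under TPM scaling, limma adjusted p = 0.057) and Cyb5r1 at 0.82.

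In SZ against CKD, 12 of the 83 wider genes rose and 1 fell (15.7% called), beside the 11.0% of all genes. The one-sided split was that of the deposited scaling: TPM scaling gave 6 higher and 9 lower, and plain totals 7 higher and 11 lower. The gene that fell was Cd163, at 0.547 ± 0.431 FPKM in SZ and 3.76 ± 2.11 FPKM in CKD kidneys (-1.54, SE 0.244, limma adjusted p = 0.0027). Slc39a8 rose to 17.6 ± 1.99 FPKM in SZ, against 9.13 ± 3.4 FPKM in CKD kidneys (0.933, SE 0.199, limma adjusted p = 0.0098), and Lrp2 to 132 ± 35.1 FPKM in SZ, against 63.1 ± 22.6 FPKM in CKD kidneys (1.09, SE 0.248, limma adjusted p = 0.013). These 3 kept their calls when any library was left out, and Fads2 (0.792, limma adjusted p = 0.018) lost it without SZ4 (limma adjusted p = 0.054). The other 9, among them 4 genes of mitochondrial iron and haem synthesis (Nfs1, Slc25a37, Alas1 and Fech) and 3 of glutathione metabolism (Cbs, Gsr and Txnrd1), lost their calls without SZ1 and also without CKD5. The 4 mitochondrial genes also lost them under TPM scaling (limma adjusted p = 0.069 to 0.28) and plain totals (0.056 to 0.17), where that list had 0 genes higher and 1 lower, and Txnrd1 did too (limma adjusted p = 0.14 and 0.064). Of the erythroid markers 2 of 4, and of the proximal tubule markers 6 of 8, were higher in SZ than in CKD kidneys, and their part in these lists was not tested. The count of 13 was 5 without SZ1 or CKD5, 4 without SZ4, 6 without CKD4, SZ2 or SZ5, 8 without CKD3 or SZ6, 22 without SZ3 and 29 without CKD1. Tf, Lcn2, Cp, Heph, Aco1, Gclc and Cth were not called in this comparison.

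In SZ against NC, 9 of the 83 rose and 13 fell (26.5% called), beside the 21.1% of all genes. Under TPM scaling 17 rose and 2 fell, and under plain totals 14 rose and 4 fell, so the balance turned with the scaling. Lcn2 averaged 55.4 ± 36.3 FPKM in SZ and 2.14 ± 1.17 FPKM in NC kidneys (4.05, SE 0.45, limma adjusted p = 8.5e-06), and Cp 56.6 ± 6.27 FPKM in SZ and 13.8 ± 7.03 FPKM in NC kidneys (2.11, SE 0.261, limma adjusted p = 2.3e-05). Heph (0.742) and the haem scavenger Hpx (0.674) rose as well. Cth fell to 102 ± 26.8 FPKM in SZ, against 229 ± 85.2 FPKM in NC kidneys (-1.11, SE 0.295, limma adjusted p = 0.012), and Slc39a8 (-0.928), Smad7 (-0.623), the haem exporter Flvcr1 (-0.547) and Pla2g6 (-0.494) fell too. These 9 genes kept their calls when any library was left out, but Pla2g6 lost its call under TPM scaling (-0.208, limma adjusted p = 0.18) and plain totals (-0.291, limma adjusted p = 0.059), and Smad7 (-0.35, limma adjusted p = 0.14) and Flvcr1 (-0.325, limma adjusted p = 0.073) under TPM scaling. Of the 22 called genes, 6 were called in every alternative. The other 13 lost their calls without at least 1 library, and the count of 22 was 11 without SZ6, 13 without NC1 or SZ5 and 14 without NC3 or NC4.

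**Figure D4:**
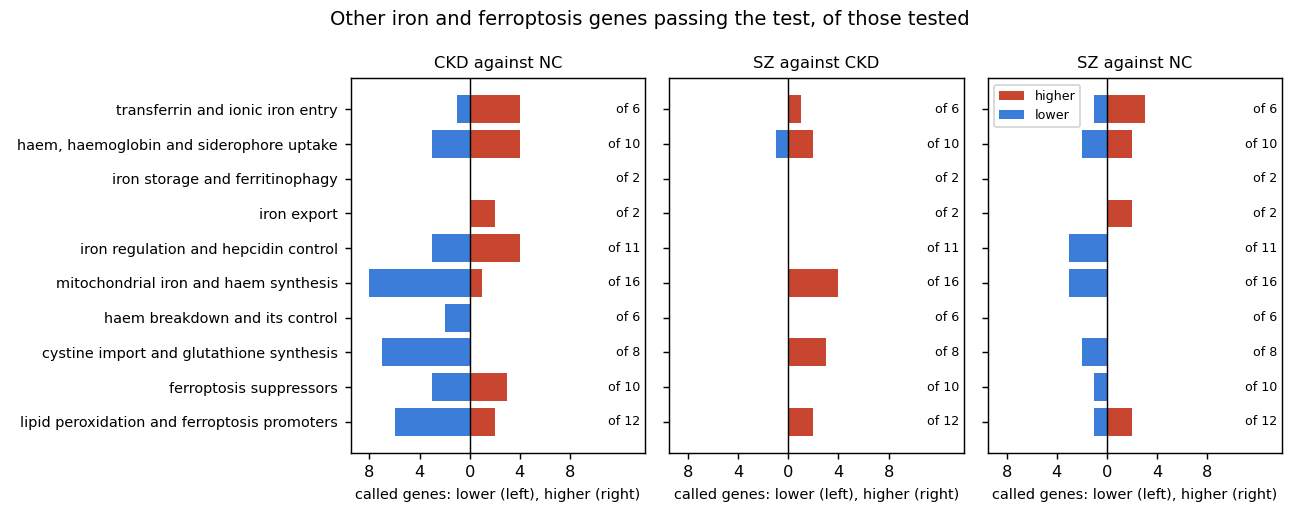
Number of genes called higher (right) and lower (left) in each of the 10 wider lists, out of those tested, in CKD against NC, SZ against CKD and SZ against NC, with the deposited scaling. In CKD against NC the glutathione list has 7 of 8 genes lower and the mitochondrial list 8 of 16 lower, and in SZ against CKD the same lists have 3 and 4 genes higher and none lower. Under TPM scaling the mitochondrial list has 4 higher and 3 lower in CKD against NC and 0 higher and 1 lower in SZ against CKD.

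The genes most alike the members in their levels over the 18 libraries were named by Pearson's r of log2(FPKM + 1), as a description in which all points share libraries and scaling. For Hmox1 they were Ckap4 (0.961), Slc15a3 (0.96) and Rftn1 (0.958), and, after group means were taken out, Clec10a (0.854), Cd83 (0.847) and Ckap4 (0.837). For Tfrc they were Bcl2l2 (0.921), Ptpn21 (0.917) and Nit1 (0.912), and the same 3 genes came first within groups (0.847, 0.844 and 0.824). For Slc11a2 they were Abcb1b (0.908), Nedd4l (0.896) and Lmo7 (0.855), and within groups Exd2 (0.909), Trim16 (0.887) and Gng12 (0.846). For Slc40a1, Snx2 came first both over all libraries (0.883) and within groups (0.937). Fth1 was most like Mix23 (0.915) over all libraries and Dpcd (0.962) within groups, and Acsl4 was most like Lrrcc1 (0.891) over all libraries and Dnm1l (0.955) within groups. Ftl1 was most like Ndufa8 (0.949) over all libraries and Micos10 (0.952) within groups, and Gpx4 was most like Dctn6 in both (0.94 and 0.953).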

How the data were processed

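The authors deposited 1 table of FPKM values for 32116 genes in 18 libraries. Reads were aligned with HISAT2 2.0.5 to mRatBN7.2, per the submitters' processing notes. No source used here names the counting program or its strand setting. FPKM multiplied by gene length came in whole steps (100% of values, tolerance 0.01), which gave reads per gene and 15354358 to 18532375 reads per library.

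The test was limma 3.58.1 (R 4.3.3), 2-sided, with an intensity trend. Its input was log2(FPKM + 1) of genes with 1 FPKM in 6 libraries, and a single fit covered all 3 groups. The limma fit was checked on simulated data that had no length slope and no scaling difference between groups. The check therefore says nothing about the effect of either. Fold changes understate those of low genes. Permutation tests used scipy 1.17.1, over 924 splits. Intervals cover the spread between libraries only.

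The members, lists and tests were chosen with earlier results of these data known. Names were drawn from the 10 members, up to 4 called genes per wider list and comparison with the largest fold change, and the 3 genes most like each member. Not all of these are printed. For Slc40a1, Fth1, Acsl4, Ftl1 and Gpx4 only the most alike gene is named. Some called list genes of CKD against NC, such as Lrp1, Ppox and Qdpr, are given only in counts. In SZ against CKD and SZ against NC, called list genes that lost their call without a library are partly given as counts. Alternatives were other pseudocounts, filters, scalings, weights and models, a replicate block, and leaving libraries out.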

Additional observations from a re-analysis of the deposited data

Results flagged for a closer look

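In 4 of 36 groups of 6 libraries (12 rows of the members in 3 groups), 1 library lay apart from the other 5 on the log2 scale, with a gap to the nearest of them that exceeds Dixon's critical share of the group's range. Chance gives about 1 in 20 such groups. Ftl1 on chromosome 1 was 1296 FPKM in SZ3 and 712.6 to 891.5 FPKM in the other SZ libraries. The Ftl1 row on chromosome 10 was 6.459 FPKM in CKD5 and 1.087 to 2.244 FPKM in the other CKD libraries. SZ3 and CKD5 are 2 of the 3 libraries in which short genes stood high, and the part of that slope in these values was not tested. Slc11a2 was 31.1 FPKM in NC2 and 39.75 to 45.47 FPKM in the other NC libraries. NC2 also had the lowest Tfrc (12.92 FPKM) and the highest Hmox1 (6.397 FPKM) of the NC libraries, and the highest macrophage marker sum among them (218.1 FPKM). Hamp was 0.1637 FPKM in NC2, from 1 read, and 0 in the other NC libraries. A group with 1 read among zeros is always flagged by this rule. The Hamp groups of SZ and CKD libraries, at 0 throughout, could not be flagged, so the chance rate does not apply to Hamp.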

How the results depend on the processing

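Hmox1 in CKD against NC and in SZ against NC was called in all 31 alternatives. Tfrc in CKD against NC and Slc11a2 in SZ against CKD were called in 30 of 31, and Slc11a2 in CKD against NC in 27 of 31. Replicate numbers did not pair the libraries, judged by the deviations of tested genes from their group means. These deviations correlated between same-numbered libraries at -0.0477 to 0.232 in CKD and NC, -0.36 to 0.0374 in SZ and CKD and -0.0187 to 0.208 in SZ and NC. Libraries of other numbers averaged -0.00886, 0.0338 and -0.0165 in these comparisons. Of 6 libraries, 1, 0 and 1 correlated best with their own number. With the replicate block, 3, 1 and 1 members and 52, 9 and 19 wider list genes were called in CKD against NC, SZ against CKD and SZ against NC.

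The number of members called in CKD against NC (3) was 5 with array weights and 3 to 4 when single libraries were left out. For SZ against CKD (1) it was 0 under TPM scaling. For SZ against NC (1) it was 3 under TPM scaling, plain totals and without CKD2, CKD5 and SZ3, 2 with only the groups compared, 4 with array weights and 1 to 2 when single libraries were left out. Of the wider list genes, 13 were called in SZ against CKD, which became 6 with no filter, 3 with only the groups compared, 22 with array weights and 4 to 29 without single libraries. In SZ against NC the 22 called became 42 with array weights and 11 to 25 without single libraries.

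Directions turned only among values close to 0 or to the shift of the median gene. In CKD against NC, TPM scaling gave 0.444 for Fth1, 0.22 for Ftl1, 0.291 and 0.211 for its rows on chromosomes 5 and 10, 0.394 for Gpx4, 0.053 for Slc11a2 and 0.16 for Slc40a1. Plain totals gave 0.335, 0.111, 0.201, 0.138 and 0.286 for Fth1, Ftl1, the same rows and Gpx4, and 0.0602 for Slc40a1. Scaling without the 20 most abundant genes gave 0.115 for Fth1, 0.013 for the row on chromosome 5 and 0.0669 for Gpx4. In SZ against NC these 3 scalings gave 0.224, 0.134 and 0.042 for Fth1, 0.21, 0.12 and 0.0279 for Gpx4 and 0.246, 0.163 and 0.0792 for Slc40a1, which was also 0.0241 with array weights, 0.00927 with a lowess length correction and 0.0225 without CKD2, CKD5 and SZ3. In SZ against CKD, Fth1 was 0.052 and Gpx4 0.078 with the length correction, Ftl1 0.046 and Gpx4 0.0621 with array weights, and Ftl1 0.0364 and Gpx4 0.0722 without the 3 libraries. Single libraries left out moved Fth1 (-0.103 to 0.0872), Gpx4 (-0.163 to 0.0646) and the rows on chromosomes 5 (-0.239 to 0.0464) and 10 (-0.35 to 0.018) in CKD against NC, Fth1 (-0.221 to 0.0188), Ftl1 (-0.226 to 0.0388), Gpx4 (-0.162 to 0.0656) and Acsl4 (-0.108 to 0.0644) in SZ against CKD, and Slc40a1 (-0.101 to 0.0225) in SZ against NC. The causes were not tested. Among other list genes named by the rule, Cisd1 and Pebp1 in CKD against NC lost their calls under TPM scaling (limma adjusted p = 0.065 and 0.17). Blvra and Hspb1 in CKD against NC lost their calls without 10 and 7 of the 18 libraries. Depth limited Hamp (1 read) and Slc7a11 in NC kidneys (11 reads).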
